A study of Mus musculus with 6 samples.

Results

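Expression of 10 genes of the smooth muscle and myofibroblast contractile apparatus was followed in cultures of mouse nucleus pulposus cells with different Chsy3 genotypes. The genes are Acta2, Actg2, Tagln, Cnn1, Cald1, Myh11, Myl9, Tpm1, Tpm2 and Fhl1. They were chosen by symbol, all 10 were found among the 46095 symbols of the table, and all 10 passed the filter on low counts together with 16061 genes in all. The cells came from the soft core of the intervertebral disc of mice labelled male and 8 weeks old, were released with collagenase, and were cultured with 20% serum up to passage 2. Bulk RNA sequencing was done on 2 libraries of wild-type cells, 2 of cells heterozygous for Chsy3 and 2 of Chsy3 knockout cells. Chsy3 encodes a chondroitin sulfate synthase, and which part of it was altered is not known here. The labels do not tell whether the paired libraries of each genotype stand for different animals or dishes. The spread behind each p-value is therefore that of these libraries alone and may be technical.

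The contractile apparatus of smooth muscle is built from actin filaments and myosin, with tropomyosin, calponin and caldesmon lying along the actin filament and setting how myosin can act on it. Fibroblasts that turn into myofibroblasts switch on much of this set, above all Acta2, which is the usual marker of that state, and pull on the matrix around them. Transcription of these genes is known to depend on serum response factor (SRF) with its myocardin-related coactivators, on TEAD factors with YAP and TAZ, and on TGF-beta signalling. In disc tissue, Acta2-positive cells have been described in the setting of fibrosis and injury.

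Total counts ranged from 29622117 to 33899611 per library, and a count of 0 allows a level of up to 3 counts, or 0.0879 to 0.104 CPM (reads of a gene scaled to a common library size), counting error only. Chsy3 itself lay at 8.34 and 8.35 CPM in wild type, 5.79 and 6.19 in heterozygous and 3.58 and 2.23 in knockout libraries, which follows the labels. Y-linked Ddx3y, Uty, Kdm5d and Eif2s3y had 0 counts in both heterozygous libraries and between 261 and 1081 counts in every wild-type and knockout library, and Xist averaged 1076 CPM in heterozygous against 658.5 in wild type and 651.9 in knockout. Wild-type and knockout libraries, labelled male, thus held both Y-linked reads and Xist, and heterozygous libraries, also labelled male, held Xist alone. Sex-linked and genotype differences therefore cannot be told apart in comparisons with heterozygous libraries. The notochord genes T, Noto, Shh and Foxa2 had 0 counts in every library and the disc matrix gene Acan had 8 in all. These defining markers of the labelled cell type were thus absent or near absent. Of 17 listed nucleus pulposus and notochord markers 9 passed the filter on low counts, and the others had at most 0.243 CPM. Wild-type means were 22.8 CPM for Col2a1, 18.0 for Foxa1, 16.0 for Sox9, 15.7 for Krt19 and 13.3 for Cd24a. Sox6, Car12, Car3 and Tek lay at 0.323 to 1.56 CPM. In bulk samples fewer cells of a type and less RNA per cell cannot be told apart.

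Promoter windows from RefSeq (GRCm38.p6, 250 bases before to 50 after a start) were at hand for 7 of the 10 genes, in 9 windows. Actg2, Tagln and Myh11 had no window and were not searched. They were searched on both strands for the CArG box, the binding motif of SRF, for the same box with 1 G or C in its core, and for the MCAT box, the motif of TEAD factors. The letters of the MCAT box are CATTCC. Read from the opposite strand they become GGAATG. No 2 matches overlap. A full CArG box was found in 2 of the 9 windows, those of Myl9 and Fhl1, against 1.63% of 32851 promoter windows. The box with 1 G or C in its core was found in 2, those of Acta2 and Myl9, against 8.50%, and the MCAT box in 3, those of Acta2, Cald1 and Tpm1, against 14.7%. These matches are letters in a window and describe no binding. All 7 genes with a window were lower in knockout, so the matches cannot be set against a contractile gene that did not fall. The stretches below hold the SRF-type boxes of Acta2, Myl9 and Fhl1 and the MCAT box of Acta2. The motif is in capitals, read 5′ to 3′ on the gene's strand. Those of Acta2 lie at chr19:34255502-34255531, chr19:34255438-34255467 and chr19:34255388-34255417 on the minus strand, upstream of the RefSeq start but inside exon 1 of the GENCODE M21 model. That of Myl9 lies at chr2:156775284-156775383 on the plus strand, outside the annotated gene, and that of Fhl1 at chrX:56779563-56779602 on the plus strand, inside the gene and outside its exons.
Acta2, MCAT box: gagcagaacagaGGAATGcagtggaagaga
Acta2, distal CArG-type box: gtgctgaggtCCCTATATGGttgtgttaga
Acta2, proximal CArG-type box: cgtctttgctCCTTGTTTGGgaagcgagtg
Myl9, full box, then the box with a G: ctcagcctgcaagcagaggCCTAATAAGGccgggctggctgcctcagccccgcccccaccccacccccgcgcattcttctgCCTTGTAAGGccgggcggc
Fhl1, full box: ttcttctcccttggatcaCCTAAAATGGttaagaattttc

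Knockout was set against wild type to see which genes differ when both alleles of Chsy3 are altered. Of the 10 contractile genes, 9 were lower in knockout and 1, Myh11, did not pass the threshold. The median log2 fold change of the 10 was -0.54, beside a median of -0.00 over all tested genes, and single genes ranged from -1.92 for Actg2 to 0.11 for Myh11. Together they held 6644 and 6593 CPM in the wild-type libraries and 4100 and 4109 CPM in the knockout libraries. Calls were made with edgeR's quasi-likelihood test at a Benjamini-Hochberg adjusted p of 0.05 over all 16061 genes. By this rule 38.0% of all genes were called. Of all genes 18.9% were called lower, 19.2% higher, and 3.77% at least 2-fold lower. Among the contractile genes 3 were at least 2-fold lower, namely Actg2, Fhl1 and Tagln. The libraries of both genotypes did not overlap for 10 of the 10 genes, 9 of them lower in knockout, beside 66.6% of all genes, 33.4% lower.

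Cells with a single altered allele were then set against wild type. Here 9 contractile genes were lower and 1, again Myh11, was higher, with a median log2 fold change of -0.32 beside -0.00 over all genes. Of all genes 38.9% were called in this comparison, 19.7% lower and 19.2% higher. Actg2 and Fhl1 were at least 2-fold lower, beside 3.07% of all genes. Non-overlap held for 67.0% of all genes, 34.0% lower. The sum of the 10 genes was 4771 and 4864 CPM in the heterozygous libraries, between the other genotypes. In knockout against heterozygous, which does not use the wild-type libraries, 7 genes were lower, 2 were higher and 1 did not pass, with a median log2 fold change of -0.19 beside 0.01 over all genes. Of all genes 37.1% were called there, 17.9% lower and 19.1% higher (2881 and 3070 genes, or 2256 and 4126 when libraries were scaled by totals alone). Again 10 of 10 contractile genes did not overlap, 8 of them lower in knockout, beside 65.7% of all genes, 31.8% lower. The knockout and heterozygous comparisons with wild type share their control libraries, so their values are given side by side and not as separate evidence.

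**Figure D1:**
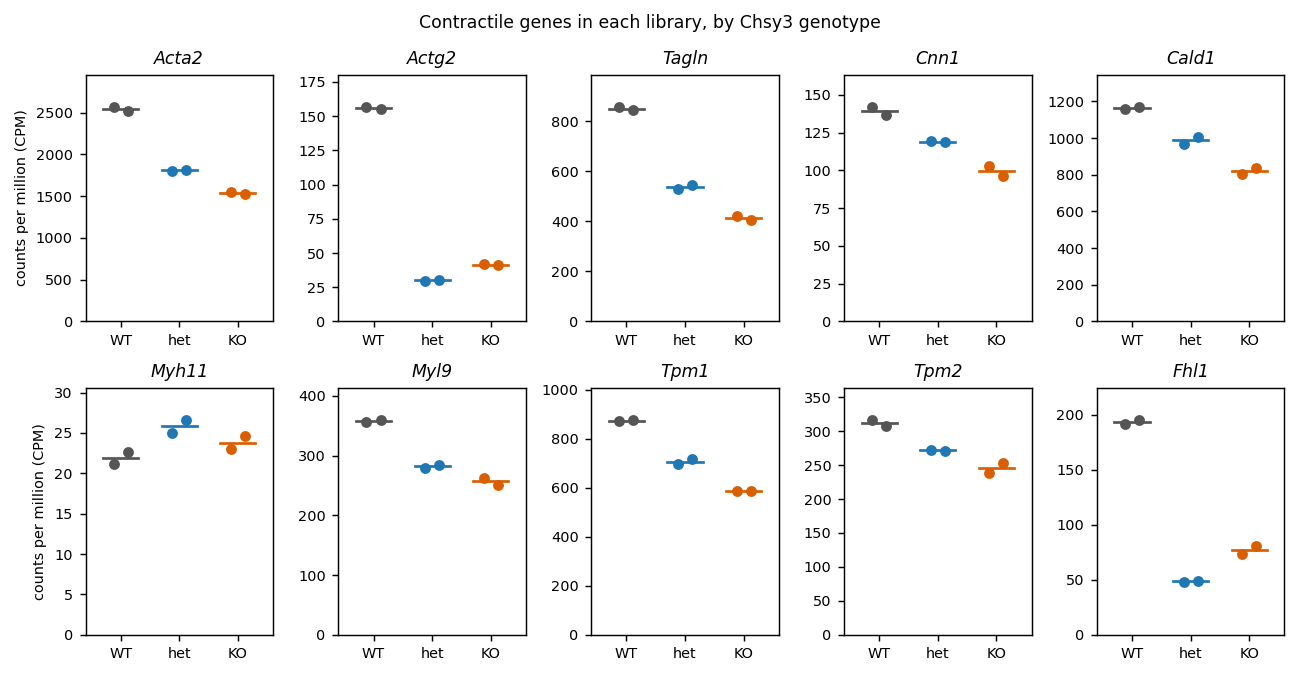
Level of each contractile gene (y axis, CPM, starting at 0) in each of the 6 libraries (points) by Chsy3 genotype (x axis; WT wild type, het heterozygous, KO knockout), with the mean of the 2 libraries as a bar. For 7 genes the levels step down from wild type over heterozygous to knockout, whereas Actg2 and Fhl1 are lowest in heterozygous and Myh11 is not lower.

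Actins form the filament itself. Acta2 (chromosome 19, 34241090 to 34255590, GRCm38), which encodes smooth muscle alpha actin, had 2569 and 2524 CPM in wild type, 1801 and 1813 in heterozygous and 1546 and 1531 in knockout. The 3 genotypes did not overlap, and knockout was at 60.4% and heterozygous at 70.9% of the wild-type mean. On the log2 scale Acta2 changed by -0.73 ± 0.02 (SE) in knockout and by -0.50 ± 0.02 in heterozygous (edgeR, adjusted p = 1.27e-30 and 1.35e-24), and knockout was below heterozygous by -0.23 ± 0.02 (edgeR, adjusted p = 1.94e-13).

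Actg2 (chromosome 6, 83512905 to 83536265), which encodes the gamma actin of visceral smooth muscle, had 156.9 and 154.9 CPM in wild type, 29.9 and 30.0 in heterozygous and 41.7 and 41.0 in knockout. It was the contractile gene with the largest fold change in both comparisons with wild type, and heterozygous was lower than knockout. Its log2 fold change was -1.92 ± 0.05 (SE) in knockout and -2.38 ± 0.06 in heterozygous (edgeR, adjusted p = 4.44e-30 and 1.17e-32), and knockout exceeded heterozygous by 0.46 ± 0.06 (edgeR, adjusted p = 2.02e-08). The actin genes are close relatives, and their sequences were not compared here. Reads of Acta2, Actg2, Acta1 and Actc1 may have been shared by the counting, whose tool is unknown here.

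Transgelin, calponin and caldesmon bind along actin. Tagln (chromosome 9, 45929619 to 45936058), which encodes transgelin or SM22, had 858.7 and 843.8 CPM in wild type, 530.1 and 546.7 in heterozygous and 423.2 and 404.6 in knockout. Knockout was thus at 48.6% of wild type, the genotypes did not overlap, with a log2 fold change of -1.04 ± 0.03 (SE) in knockout and -0.66 ± 0.03 in heterozygous (edgeR, adjusted p = 1.32e-31 and 1.27e-24). The exons of Tagln overlap Pcsk7 on the other strand, which had 1718 to 2868 counts per library against 13806 to 29229 for Tagln. Without a stated strand setting reads in the overlap cannot be told apart.

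Cnn1 (chromosome 9, 22099216 to 22109630), which encodes the smooth muscle calponin that restrains myosin on actin, had 142.2 and 137.0 CPM in wild type, 119.3 and 118.8 in heterozygous and 102.8 and 96.1 in knockout. Cald1 (chromosome 6, 34598500 to 34775473), which encodes caldesmon in smooth muscle and non-muscle forms that gene counts do not separate, had 1160 and 1171 CPM in wild type, 967.9 and 1007 in heterozygous and 803.2 and 839.5 in knockout. Both genes stepped down from wild type over heterozygous to knockout with no overlap. Their log2 fold changes were nearly the same, at -0.49 ± 0.04 (SE) for Cnn1 and -0.51 ± 0.02 for Cald1 in knockout, and at -0.23 ± 0.04 and -0.24 ± 0.02 in heterozygous (edgeR, adjusted p of at most 3.16e-05 for the 4 values).

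Myosin drives contraction. Myl9 (chromosome 2, 156775420 to 156781658), the regulatory light chain of smooth muscle and non-muscle myosin, had 355.8 and 359.5 CPM in wild type, 279.7 and 284.9 in heterozygous and 262.5 and 251.1 in knockout. Its genotypes did not overlap, and its log2 fold change was -0.48 ± 0.03 (SE) in knockout and -0.34 ± 0.03 in heterozygous (edgeR, adjusted p = 2.99e-17 and 1.27e-12). Between knockout and heterozygous it was -0.14 ± 0.03 (edgeR, adjusted p = 0.000371), a call that was lost under scaling by library totals alone (adjusted p = 0.0541, range 3.42e-05 to 0.0541 over 13 alternatives).

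Myh11 (chromosome 16, 14194535 to 14291372), which encodes the smooth muscle myosin heavy chain and marks differentiated smooth muscle, had 21.2 and 22.7 CPM in wild type, 25.0 and 26.6 in heterozygous and 23.0 and 24.6 in knockout. It was the only one of the 10 genes with no lower value in either mutant genotype. Knockout differed from wild type by 0.11 ± 0.09 log2 (SE; edgeR, adjusted p = 0.359) and heterozygous from wild type by 0.23 ± 0.09 (edgeR, adjusted p = 0.0406). The heterozygous call was lost in 6 of 13 alternatives, with DESeq2 (adjusted p = 0.0822), with library totals alone (0.0973), with no filter (0.0653), and without wild-type library 1 (0.246), wild-type library 2 (0.0553) or heterozygous library 2 (0.240), in a range of 0.0331 to 0.246.

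Tropomyosins wind along the actin filament and gate it. Tpm1 (chromosome 9, 67022590 to 67049406) had 872.5 and 877.2 CPM in wild type, 697.6 and 717.3 in heterozygous and 586.3 and 587.3 in knockout. Tpm2 (chromosome 4, 43514711 to 43523765) had 316.4 and 307.9 CPM in wild type, 272.4 and 271.0 in heterozygous and 238.3 and 252.9 in knockout. Both stepped down with no overlap between genotypes, Tpm1 by -0.58 ± 0.02 log2 (SE) and Tpm2 by -0.35 ± 0.03 in knockout against wild type, the smallest decrease among the 9 genes that fell (edgeR, adjusted p = 7.17e-24 and 2.96e-12). In heterozygous they were at -0.31 ± 0.02 and -0.20 ± 0.03 (edgeR, adjusted p = 1.28e-14 and 1.62e-06). Both genes are spliced into muscle and non-muscle forms, which gene counts do not separate.

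Fhl1 (chromosome X, 56731787 to 56793346) encodes a LIM-domain protein of muscle that binds structural and signalling proteins. It had 191.4 and 195.0 CPM in wild type, 47.9 and 48.9 in heterozygous and 73.3 and 80.6 in knockout, so heterozygous libraries were at 25.1% and knockout libraries at 39.8% of wild type. The genotypes did not overlap, and as for Actg2 heterozygous lay lowest. Since Fhl1 is X-linked and the heterozygous libraries lacked Y-linked reads, sex-linked and genotype differences cannot be told apart for this low value. The log2 fold change of Fhl1 was -1.33 ± 0.05 (SE) in knockout and -2.0 ± 0.05 in heterozygous (edgeR, adjusted p = 2.89e-26 and 9.03e-32), with knockout above heterozygous by 0.67 ± 0.05 (edgeR, adjusted p = 1.53e-14).

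**Figure D2:**
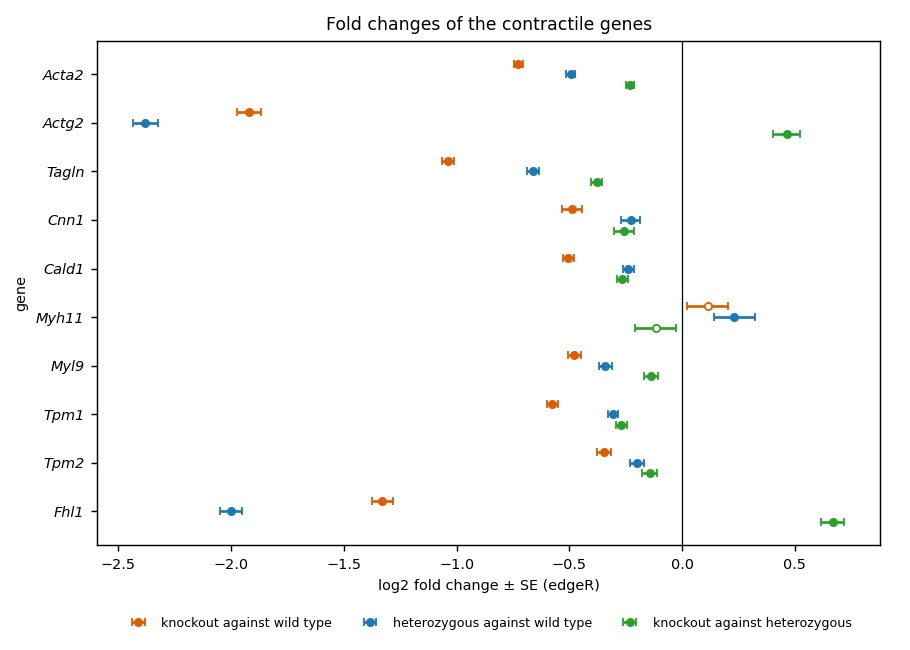
Log2 fold change (x axis, ± SE, edgeR) of each contractile gene (y axis) in the 3 comparisons (colours), with open points for values past no threshold. In both comparisons with wild type 9 of 10 genes lie left of 0, and between knockout and heterozygous Actg2 and Fhl1 lie right of 0 at 0.46 and 0.67.

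Levels can be set between genes only per length, as CPM per kilobase of the union of GENCODE M21 exons. This union can be longer than any single transcript and was 12041 bases for Cald1, 6485 for Tpm1 and 1162 for Myl9. The order below depends on it and may place genes with many transcript forms too low. In wild type Acta2 led with 1160 ± 14.6 CPM per kilobase (SD, n = 2), followed by Tagln at 428.2 ± 5.32 and Myl9 at 307.8 ± 2.26. Tpm1 came next at 134.9 ± 0.515, then Tpm2 at 107.3 ± 2.08, Actg2 at 100.1 ± 0.916 and Cald1 at 96.8 ± 0.667 (SD, n = 2). Fhl1 at 52.0 ± 0.682 and Cnn1 at 51.0 ± 1.35 overlapped, while Myh11 was far below the rest at 2.89 ± 0.139 CPM per kilobase (SD, n = 2). In knockout Acta2 still led at 700.5 ± 4.85 and Myh11 was still last at 3.13 ± 0.149, whereas Myl9 at 221.0 ± 6.91 stood above Tagln at 208.2 ± 6.60, and Actg2 had dropped from position 6 to position 8 (SD, n = 2). Other genes of smooth muscle spanned a wide range of levels, and those given here were chosen after their values were seen. The coactivator Myocd had 19 counts in all libraries together, the calcium-store genes Pln and Casq2 had 35 and 24, and the intermediate filament gene Des lay between 0.485 and 0.894 CPM as a mean of a genotype. By contrast Smtn, the cytoskeletal gene smoothelin, had means of 121.2, 116.4 and 92.6 CPM in wild type, heterozygous and knockout, Lmod1, an actin nucleator of smooth muscle, 61.5, 68.3 and 42.7 CPM, and Mylk, the myosin light chain kinase, 67.0, 101.1 and 103.9 CPM.

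Within gene families the share of reads that went to the smooth muscle isoform does not depend on how libraries are scaled. Shares are of reads, not corrected for length, and with 2 libraries a genotype the smallest two-sided p of an exact permutation test would be 0.333, so they are given as values. Acta2 and Actg2 took 29.0% and 28.4% of the reads of 6 actin genes in wild type, 23.8% and 23.9% in heterozygous and 20.4% in each knockout library. The share thus fell in the order wild type, heterozygous, knockout with no overlap. The non-muscle actin Actb, the main actin of most cells, was at -0.09 ± 0.02 (SE) and Actg1 at -0.30 ± 0.02 log2 in knockout against wild type.

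Tagln took 74.1% and 75.2% of the reads of 3 transgelin genes in wild type, 72.8% in each heterozygous library and 59.6% and 58.6% in knockout. The drop was largest between heterozygous and knockout, where Tagln2, the broadly expressed transgelin, was at -0.52 ± 0.03 log2 in heterozygous but at -0.01 ± 0.03 in knockout against wild type (SE; edgeR, adjusted p = 6.42e-17 and 0.814). Tpm1 and Tpm2 took 49.4% and 49.5% of tropomyosin reads in wild type, 47.5% and 48.7% in heterozygous and 42.1% and 42.8% in knockout. Tpm3, listed here as a non-muscle paralog though gene counts do not separate its forms, rose by 0.33 ± 0.03 log2 (SE) in knockout. Tpm4 fell by 0.26 (edgeR, adjusted p = 1.15e-11 and 2.74e-12). Myl9 took 36.6% and 37.9% of the reads of 3 light chain genes in wild type and 33.2% and 32.6% in knockout.

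The calponin and heavy chain shares did not fall, whereas the Fhl1 share did. Cnn1 took 11.2% and 10.9% of calponin reads in wild type, 12.1% ± 0.0646 (SD, n = 2) in heterozygous and 12.8% and 11.9% in knockout. Cnn2 and Cnn3 were lower as well, Cnn3 by -0.97 ± 0.03 log2 (SE) in knockout and -0.55 ± 0.03 in heterozygous (edgeR, adjusted p = 2.84e-29 and 2.00e-20). Myh11 took 0.694% and 0.736% of heavy chain reads in wild type, 1.02% and 1.10% in heterozygous and 0.988% and 1.04% in knockout. Among the other heavy chains Myh9 was at -0.36 ± 0.02 and Myh10 at -1.01 ± 0.04 log2 in knockout, and Myh10 was at 0.00 ± 0.04 in heterozygous (SE; edgeR, adjusted p = 4.37e-20, 5.29e-24 and 0.990). Fhl1 took 50.7% and 51.8% of the reads of 3 four-and-a-half-LIM genes in wild type, 17.3% in each heterozygous library and 29.2% and 31.2% in knockout. The related Fhl2 rose by 0.82 ± 0.05 log2 (SE) in heterozygous (edgeR, adjusted p = 1.95e-19).

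**Figure D3:**
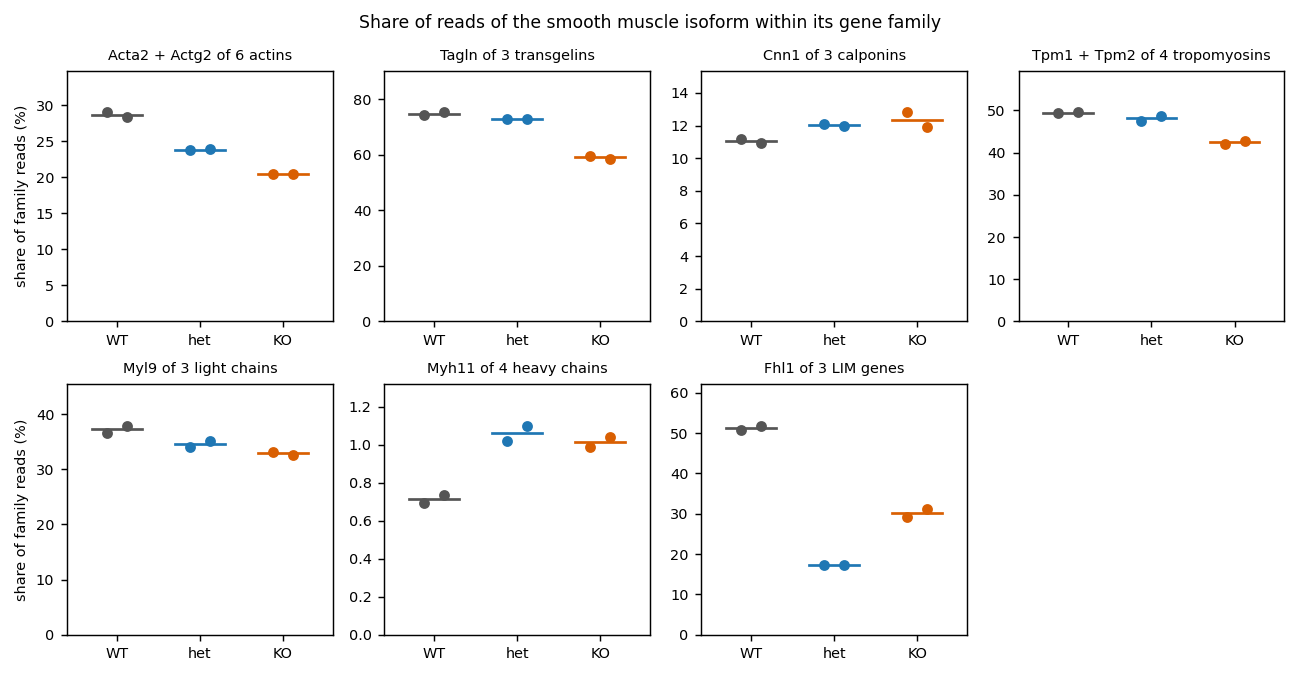
Share of a family's reads that went to its contractile gene or genes (y axis, percent, starting at 0) in each of the 6 libraries (points) by genotype (x axis), with the mean as a bar. The heading calls these the smooth muscle isoform, though whole genes were counted. Actins, transgelins, tropomyosins and light chains end lowest in knockout, the calponin and heavy chain shares do not fall, and the Fhl1 share is lowest in heterozygous.

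Further genes of the apparatus and its anchors to the membrane gave 26 lower and 5 higher of 39 tested in knockout, with a median log2 fold change of -0.31, beside 18.9% of all genes called lower and 19.2% higher. In heterozygous the list gave 16 lower and 9 higher, with a median of -0.07, beside 19.7% and 19.2% of all genes. The same shares are the background for the counts of the lists and markers that follow. Flnc, a filamin that crosslinks actin in muscle, was at -0.82 in knockout and -0.56 in heterozygous, and Pdlim7, a scaffold of stress fibres, at -0.87 and -0.62. The focal adhesion gene Vcl was at -0.45 in knockout and -0.01 in heterozygous (edgeR, adjusted p = 3.56e-21 and 0.777), and Csrp2, a LIM protein of smooth muscle, was at -1.03 and -0.16. Against this direction Sorbs2, an adaptor of stress fibres, rose by 2.31 log2 in knockout and 3.34 in heterozygous, and Synm, a muscle intermediate filament gene, by 2.03 in heterozygous. The 15 non-muscle paralogs gave 9 lower and 2 higher in each comparison with wild type, with medians of -0.26 in each.

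Regulators of contractile transcription gave 16 lower and 7 higher of 41 tested in knockout (median log2 -0.09, beside 18.9% and 19.2% of all genes) and 15 lower and 11 higher in heterozygous (median -0.01). Srf, named for its role and not by the naming rule, was at -0.12 in knockout and -0.22 in heterozygous (edgeR, adjusted p = 0.0873 and 0.0011). Named for their role as well, Yap1 was at -0.52 and -0.26 and Wwtr1, which encodes TAZ, at -0.66 and -0.15. The coactivator genes Mkl1, at 0.05 and 0.14, and Mkl2, at 0.05 and -0.01, did not pass the threshold in knockout. Tead1 fell by 0.47 in knockout and 0.12 in heterozygous, and Tead4 by 1.29 and 1.84. Among TGF-beta ligands, Tgfb1 rose by 0.52 log2 in knockout and 0.19 in heterozygous, whereas Tgfb2 was at -0.96 and -1.27 and Tgfb3 at -0.62 and -0.18. The coreceptor gene Tgfbr3 rose by 0.83 and 1.34. Klf5, a factor of activated smooth muscle, was at -3.74 in knockout and -4.29 in heterozygous, from 16.8 CPM in wild type. A list of other SRF targets gave 9 lower and 0 higher of 14 in knockout and 9 lower and 2 higher in heterozygous. It shares Vcl, lower in knockout, with the list of the apparatus and its anchors. Egr1, an immediate early gene, was at -1.28 and -1.40, Ctgf, a secreted matricellular gene also controlled by YAP, at -0.84 and -0.82, and Cyr61 at -0.94 and -0.40.

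Matrix and surface genes of myofibroblasts were mostly lower in knockout and more often higher than lower in heterozygous. In knockout 23 of 29 were lower and 5 higher (median log2 -0.47), and in heterozygous 10 were lower and 16 higher (median 0.16). Knockout against heterozygous gave 24 lower and 3 higher (median -0.70), beside 17.9% of all genes called lower and 19.1% higher. Postn, which encodes periostin, was at -1.04 in knockout and 1.57 in heterozygous against wild type, and Col3a1 at -0.47 and 0.55. Adam12, a protease of activated fibroblasts, was lower in both, at -2.46 and -1.68. All list values are edgeR log2 fold changes, and the lists and their members were chosen with earlier results of these data known.

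**Figure D4:**
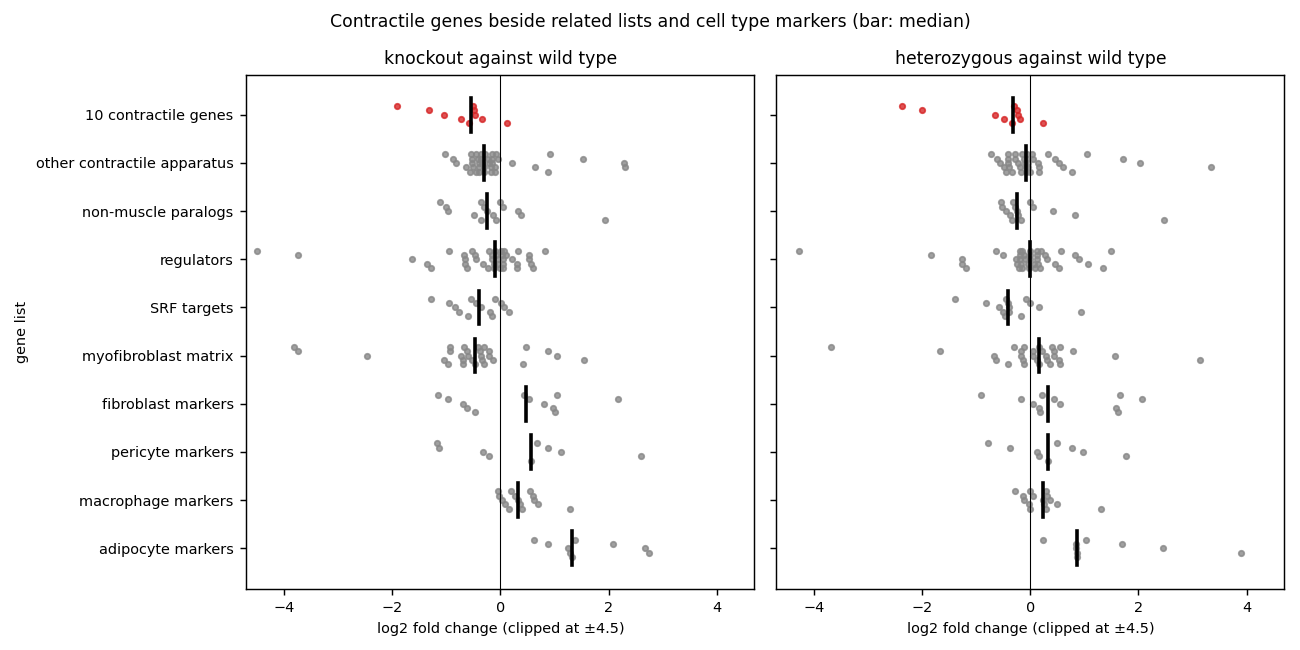
Log2 fold change of each tested gene (points; x axis, clipped at 4.5 in either direction) in the contractile genes (red) and in related lists and cell type markers (grey; y axis), with the median of each list as a bar, for knockout (left) and heterozygous (right) against wild type. The medians of the contractile genes lie at -0.54 and -0.32, and that of the myofibroblast matrix list changes from -0.47 to 0.16.

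Markers of other cells moved as well, and their part in the contractile decrease was not tested. In knockout, 18.9% of all genes were called lower and 19.2% higher, and in heterozygous 19.7% and 19.2%. In knockout 11 of 15 macrophage markers rose and 0 fell, with a summed level of 17017 to 17220 CPM against 14693 to 14972 in wild type. In heterozygous 8 were higher and 3 lower, at 17799 to 17922 CPM. These sums lean on single genes. Lyz2, the largest part, had means of 7208, 8841 and 7021 CPM in wild type, heterozygous and knockout, and Mrc1 had 750.2, 1852 and 1822. Adipocyte markers were higher in 9 of 9 tested in knockout, at 581.9 to 584.1 CPM against 243.1 to 244.8, and in 8 of 9 in heterozygous, at 442.1 to 452.7 CPM. The largest part of each adipocyte sum came from Lpl, with means of 149.3, 272.1 and 376.0 CPM in wild type, heterozygous and knockout. Adipoq had only 0.323, 1.80 and 2.07 CPM, Plin1 0.0588, 0.928 and 0.419, and Cidec 2 counts in all libraries. Fibroblast markers split in knockout, with 6 higher and 5 lower of 12, at 23353 to 23479 CPM against 36889 to 37496 in wild type. In heterozygous they were higher in 9 and lower in 1, at 41562 to 42709 CPM. Most of each sum came from Fn1, Col1a1, Col1a2 and Col3a1, which with Fap are also in the myofibroblast matrix list. Fn1 had means of 15424 CPM in wild type and 10042 in knockout, and Col1a1 10589 and 5412. The 6 higher in knockout were Pdgfra, Dcn, Lum, Dpt, S100a4 and Fap. Thus Pdgfra, a receptor of fibroblasts, rose by 0.96 log2 in knockout and 1.65 in heterozygous, while Thy1 was at -1.16 and -0.17.

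Markers of vascular smooth muscle and pericytes gave 3 higher and 4 lower of 9 tested in knockout, at 1243 to 1266 CPM against 1026 to 1028 in wild type, and 3 higher and 2 lower in heterozygous, at 1279 to 1329 CPM. Among them Cspg4, the pericyte proteoglycan NG2, was at -1.18 and Anpep at 1.13 in knockout. The higher knockout sum came mainly from Anpep, with means of 301.4 CPM in wild type and 659.7 in knockout. Ndufa4l2 had 80.3 and 127.7 CPM. The 4 lower genes were Pdgfrb, at 391.8 and 338.6 CPM, Cspg4, at 204.5 and 90.0 CPM, Notch3 and Mcam. Kcnj8 and Higd1b had 6 and 2 counts in all libraries. Skeletal muscle markers gave 0 higher and 1 lower of 7 tested, Actn3 in knockout and Acta1 in heterozygous, at 17.0 to 18.7 CPM in knockout, 15.9 to 16.0 in heterozygous and 19.2 to 20.9 in wild type, and Myh2, Myh4, Myh3, Myod1 and Myog had 0 counts in every library. Endothelial markers gave 3 higher and 2 lower of 6 in knockout, at 77.5 to 81.1 CPM against 40.8 to 41.7, and 0 higher and 3 lower in heterozygous, at 30.7 to 34.7 CPM, with Cldn5 at 0 in every library. Nucleus pulposus markers gave 1 higher and 3 lower of 9 in knockout, at 65.1 to 66.8 CPM against 88.8 to 90.6, and 4 and 4 in heterozygous, at 83.1 to 84.8 CPM.

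The genes most like Acta2 over the 6 libraries were sought among 9682 genes by the root mean square difference of log2 CPM centred on each gene's mean. They were Id3, an inhibitor of helix-loop-helix factors, at 0.0150, Glipr2 at 0.0168 and Scd2, a fatty acid desaturase, at 0.0366. Id3 had 253.0, 177.0 and 151.5 CPM as means of wild type, heterozygous and knockout. The genes most like Tagln were Tmeff1 at 0.0363, Ddah1 at 0.0467 and the calponin gene Cnn3 at 0.0488. Of the other contractile genes Tpm1 came nearest to Acta2, at a difference of 0.0827 and rank 48, and Acta2 nearest to Tagln, at 0.129 and rank 60. Actg2 and Fhl1 were nearest to each other among the contractile genes, at a difference of 0.247.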

How the data were processed

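Read counts per gene symbol were deposited by the authors in 1 table with 6 columns, whose columns were matched to libraries by title. The values are whole numbers with unequal totals and were taken as raw. Alignment tool HISAT2 2.0.4 and build GRCm38 appear per the submitters' processing notes, while how reads were counted, on which annotation and with which strand rule was not given in the sources used here. The table had 0 rows without a gene name.

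Counts were tested with edgeR version 4.0.16 in R version 4.3.3. Libraries were scaled by TMM factors (0.974 to 1.02), genes were filtered with the default filter by group, and all 6 libraries entered 1 robust quasi-likelihood fit with 3 residual degrees of freedom and two-sided F tests. SE is the log2 fold change divided by the square root of F, and CPM uses the scaled library size. Log2 CPM for pattern likeness has a prior count of 2, over genes with a mean of at least 3. Libraries of a genotype differed by more than sampling noise (chi-square per degree of freedom 3.62 to 3.76).

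The contractile genes, lists, comparisons and alternatives were chosen with earlier results of these data known. Genes named were the 10 contractile genes, their family relatives, the up to 5 members of a list with the smallest p in knockout and 3 in heterozygous, and members called and changed at least 2-fold. In simulated data with 15785 tested genes, the comparison of knockout with wild type recovered 18 of 50 genes with a 1.2-fold change. It recovered 31 of 50 with a 1.5-fold change, 39 of 50 with a 2-fold change and 45 of 50 with a 4-fold change, and it called 10 of 15587 unchanged genes. Alternatives were RLE factors, library totals, DESeq2 version 1.42.0, no filter, a filter of 50 counts in 2 libraries, only the 4 libraries compared, a replicate block, and leaving out each library.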

Additional observations from a re-analysis of the deposited data

How the results depend on the processing

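Over 13 alternatives for each of 10 genes in 3 comparisons, 383 of 390 values kept their direction and their side of the threshold, 7 kept the direction and lost the call, and 0 reversed. The lost calls were those of Myh11 in heterozygous against wild type (6) and Myl9 in knockout against heterozygous (1). The number of contractile genes called stayed at 9 in knockout against wild type, at 9 or 10 in heterozygous against wild type and at 8 or 9 in knockout against heterozygous. Scaling by library totals alone moved the median log2 fold change of the contractile genes from -0.32 to -0.37 in heterozygous against wild type and from -0.19 to -0.13 in knockout against heterozygous, where it also moved the split of all calls from 2881 lower and 3070 higher to 2256 lower and 4126 higher. Leaving out 1 library gave medians of -0.56 to -0.54, -0.34 to -0.30 and -0.20 to -0.19 in the 3 comparisons. The Chsy3 decrease in heterozygous (adjusted p = 0.0444) was lost with DESeq2 (0.119) and without any 1 of the 4 libraries compared (0.0923 to 0.181).

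Same-numbered libraries showed no visible shared effect. The correlation of their deviations from the group mean was 0.0142, -0.00682 and 0.0173 for the 3 pairs of genotypes. With 2 libraries a genotype this cannot tell whether they share an animal, a dish or a day. With the replicate block the contractile genes called were 9, 10 and 9, their medians -0.54, -0.32 and -0.19, and all genes called 6080, 6222 and 5913, against 6111, 6248 and 5951 without it. Depth limits Myh11 most, with 721 to 846 counts per library.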

Other observations

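Actg2 and Fhl1, the contractile genes that were lowest in heterozygous libraries, had neighbours in pattern that were looked up after their values were seen. The 3 genes most like Actg2 over the 6 libraries were Zic1 (root mean square difference of centred log2 CPM 0.115), Foxd1 (0.142) and Akap12 (0.179), and the 3 most like Fhl1 were Bst1 (0.119), Foxd1 (0.127) and Hes1 (0.145). Zic1 and Foxd1 encode transcription factors that pattern embryonic tissues, and Hes1 encodes a target of Notch signalling. Zic1 had 77.4, 16.1 and 19.2 CPM as means of wild type, heterozygous and knockout, and Foxd1 had 89.1, 20.2 and 29.7 CPM. Each of these means rests on 2 libraries, and no test was made on genes picked in this way.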
